A study of Mus musculus with 6 samples.

Results

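The genes described here encode the proteins that start, branch, elongate, cap and take apart actin filaments. The set was given as a list of 52 mouse gene symbols, sorted here into 8 roles: 9 subunits of the Arp2/3 complex, 11 WASP and WAVE activators, 12 formins, 2 nucleators with WH2 domains, 4 monomer binding proteins, 7 cofilins with their kinases and phosphatases, 4 cortactin and IQGAP scaffolds, and 3 capping and severing proteins. All 52 were among the 78409 genes of the deposited table, each under 1 row. Of these, 50 had enough reads to be tested, and Was and Fhod3 did not. The samples were nephrogenic stroma, the connective tissue around forming nephrons, sorted for the receptor PDGFRa from pooled embryonic day 18 kidneys of wild-type CD1 mice. The cells were cultured for 18 h in medium with fetal bovine serum on PDMS, a silicone elastomer, that had been incubated for 4 h in bovine fibronectin at 500 ng/mL (low adhesion, 3 libraries) or 50000 ng/mL (high adhesion, 3 libraries). The libraries are matched by litter, with 3 litters each represented on both substrates. Cells for both substrates had been washed and stained in a medium with Y27632, an inhibitor of the kinase ROCK, before culture. Library totals lay between 12596249 and 13508257 counts, so 3 counts stood for 0.222 to 0.238 CPM, the deposited unit, which scales a count to its library total.

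A new actin filament starts at a nucleator. The Arp2/3 complex, switched on by WASP and WAVE proteins, adds a branch to the side of an existing filament and builds the sheet-like front of a spreading cell. Formins start and extend unbranched filaments and stay on the growing end, fed by profilin-bound actin. Thymosins hold monomers in reserve, capping protein stops growth at the fast-growing end, and cofilin cuts old filaments so that monomers return to the pool. Cells on more fibronectin can form more integrin contacts, to which this machinery is coupled, and the comparison asks whether its transcripts differ between the substrates.

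Of 50 tested genes of this machinery, 4 passed the test. Cobl, Cfl2 and Daam1 were higher at high adhesion and Iqgap1 was lower. These 4 calls were 8% of the 50 tested members, against 9.55% of all 14834 tested genes (edgeR's quasi-likelihood test with litter as a block, adjusted p under 0.05). By direction, 3 members were higher, against 4.71% of all genes, and 1 was lower, against 4.83%. The median log2 fold change (high minus low adhesion) was 0.012 over the tested members and -0.0012 over all tested genes. The median size of the change, regardless of sign, was 0.073 for members and 0.104 for all genes on the log2 scale. The 95% interval of the fold lay wholly within 1.2-fold in either direction for 33 of the 50 members, and for 39.4% of all tested genes. These intervals are for single genes, are not adjusted for the number of genes and narrow as counts rise. Estimates also scatter less as counts rise, and 46 of the 50 members averaged at least 5 CPM. Neither the median sizes nor the interval shares were matched for level. An unadjusted p under 0.05 was found for 13 of the 50 members and for 21.9% of all tested genes. Without the replicate block 1 member passed, Iqgap1, when 0.243% of all genes did.

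**Figure D1:**
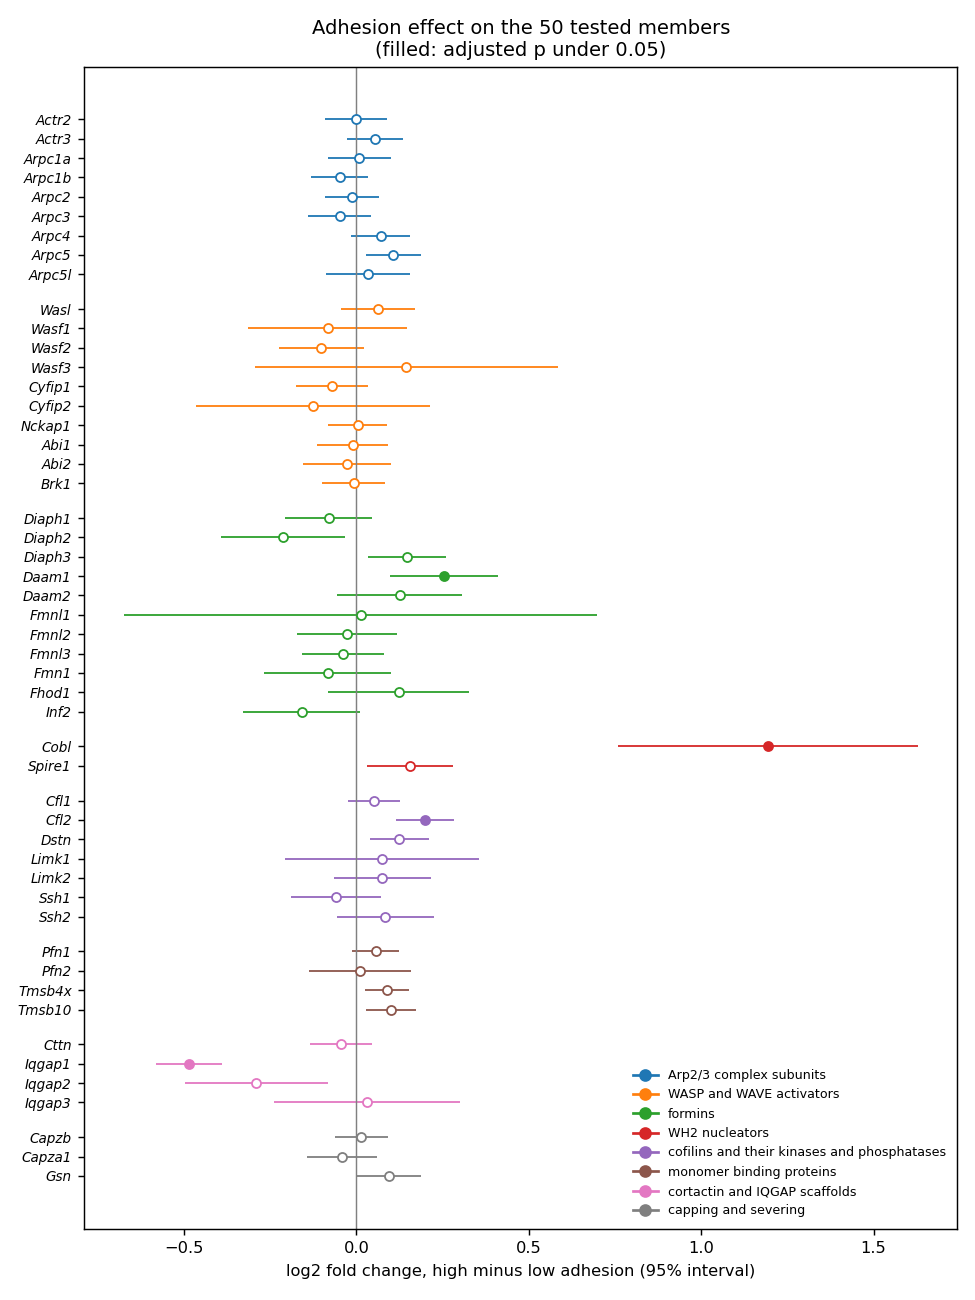
Log2 fold change (high minus low adhesion) of the 50 tested members, 1 row per gene, coloured by role; points are edgeR estimates, bars their 95% intervals, and filled points passed the adjusted p. Most points lie close to 0, with Cobl at 1.19 far to the right and Iqgap1 at -0.49 to the left.

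The levels of the members spanned a wide range. The scale of CPM per kb of exon allows genes to be compared. On it Tmsb4x (thymosin beta 4, the main actin monomer store of many cells) had the highest mean over the 6 libraries, 12919. Pfn1 (profilin) had 1694, Tmsb10 1234 and Cfl1 (cofilin) 744. By the length of the longest transcript, Tmsb10 at 2282 stood above Pfn1 at 2040. Tmsb4x was the gene of highest or second highest CPM in every library (ranks 1 to 2 of all genes). The 52 members together took 2.95% to 3.35% of a library's counts, of which the monomer binding genes alone took 2.18% to 2.52%. Formins lay far lower on the per-kb scale, from 11.5 for Diaph3 down to 0.0606 for Fhod3. Was and Fmnl1, which are known for their role in blood cells, had 0.257 and 0.192 CPM per kb. Exon lengths came from a mouse annotation of another genome build than the counts, and the order depends on the length used. Neighbours in this order are therefore not ranked.

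**Figure D2:**
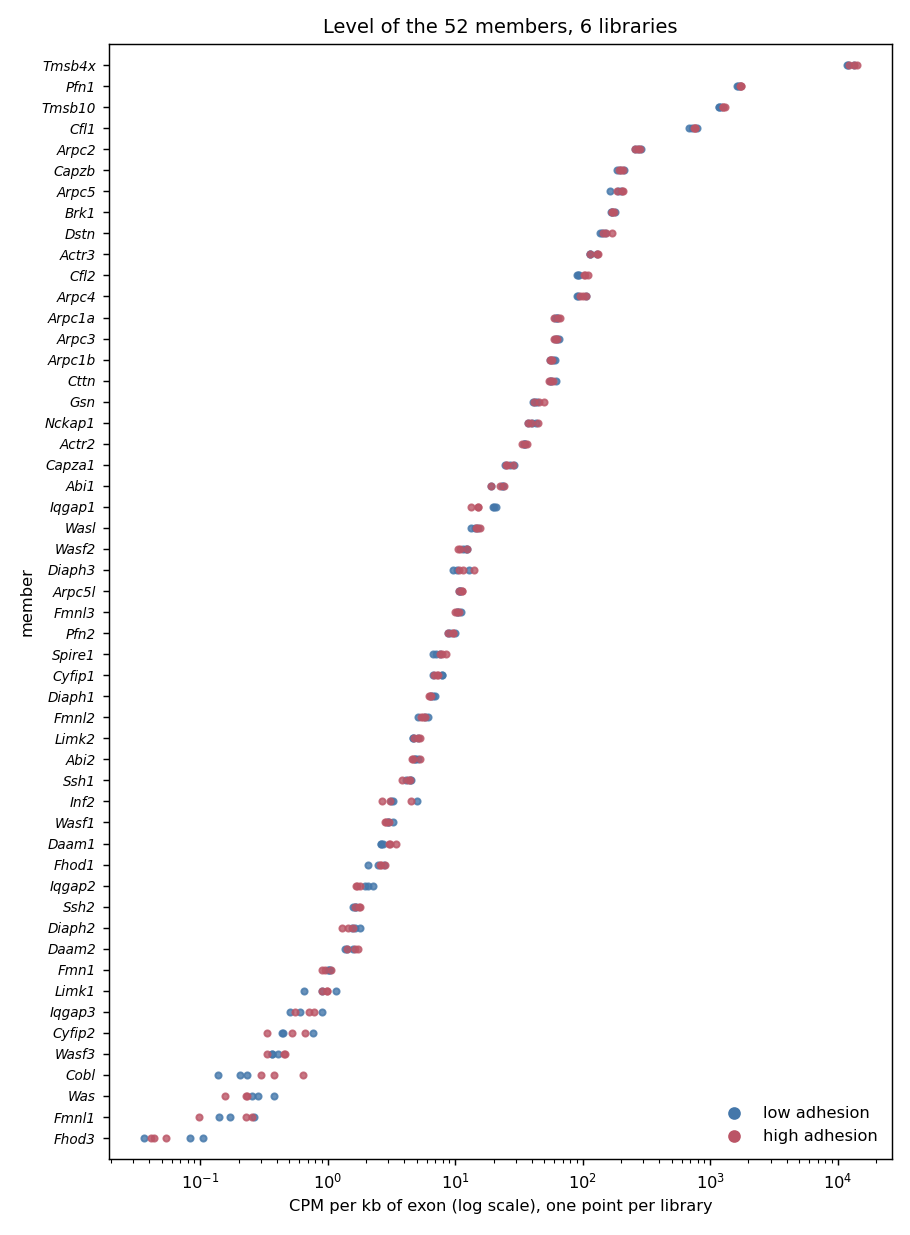
Level of each of the 52 members in CPM per kb of exon (log scale), 1 point per library, blue for low and red for high adhesion. The order runs from Tmsb4x at about 12919 to Fhod3 at 0.0606, and the groups overlap for most genes.

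None of the 9 subunits of the Arp2/3 complex passed in edgeR, DESeq2 or limma-voom, and 1 had an unadjusted edgeR p under 0.05. Actr3, 1 of the 2 actin-related proteins that form the base of the new branch, had 534, 603 and 528 CPM in the low adhesion libraries of litters 1, 2 and 3 and 595, 606 and 529 CPM in the high adhesion libraries. The groups overlapped, and litter 2 was high on both substrates. Its log2 difference was 0.05 ± 0.04 (model SE, 3 litter pairs, edgeR adjusted p = 0.493). Arpc5, a small subunit of the complex, was highest in litter 2 on both substrates: its values were 373, 458 and 432 CPM at low against 424, 474 and 462 CPM at high adhesion. It was above its partner in 3 of 3 litters with a fold of 1.08 (95% interval 1.02 to 1.14, edgeR adjusted p = 0.0898), and passed only without litter 2 (adjusted p = 0.0399). The fold intervals of all 9 subunits lay within 1.2-fold, with the lowest bound at 0.908 for Arpc3 and the highest at 1.14 for Arpc5. The CPM of the 9 subunits summed to 2544, 2731 and 2579 in the low adhesion libraries and 2665, 2744 and 2593 in the high adhesion libraries.

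The complex exists in variants that differ in the Arpc1 and Arpc5 subunits, and the share of each variant gene was computed from CPM per kb. Arpc5 made up 94.4% ± 0.594 of the Arpc5 and Arpc5l pair at low and 94.7% ± 0.387 at high adhesion (SD, n = 3 each). Arpc1a and Arpc1b were near parity, with Arpc1a between 51.1% and 52.2% at low and between 51.6% and 54.0% at high adhesion. The Arpc1a ranges overlapped, and the Arpc5 difference was below the SD of either group. Arpc5l had 48.6 to 49.3 CPM at low against 48.4 to 51.3 CPM at high adhesion, with overlapping groups.

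None of the 10 tested WASP and WAVE genes passed in edgeR, DESeq2 or limma-voom, and none had an unadjusted edgeR p under 0.05, with log2 fold changes between -0.13 for Cyfip2 and 0.15 for Wasf3. Nckap1, a core subunit of the WAVE complex that relays signals from the GTPase Rac, had the highest CPM of the group. It stood at 212, 186 and 200 CPM at low against 221, 185 and 196 CPM at high adhesion. Litter 1 was the highest on both substrates and the fold was 1.00 (95% interval 0.944 to 1.06, edgeR adjusted p = 0.977). Wasf2, the WAVE gene of highest CPM here, had 76.2, 72.7 and 77.7 CPM at low against 68.7, 77.0 and 66.2 CPM at high adhesion. It was below its partner in litters 1 and 3 and above it in litter 2, and without litter 2 the gene passed at -0.21 on the log2 scale (edgeR adjusted p = 0.0156, against 0.35 with all litters). Wasl, the widely expressed N-WASP, lay between 82.8 and 95.8 CPM. Was itself had 0.608, 0.683 and 0.905 CPM at low against 0.548, 0.556 and 0.370 CPM at high adhesion. The groups did not overlap, but these were 5 to 12 counts per library, too few to test.

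Formins gave 1 call among 11 tested genes. Daam1 (ENSMUSG00000034574), a formin that acts downstream of Wnt signals in planar cell polarity, had 21.3, 21.4 and 21.9 CPM at low against 24.4, 28.1 and 24.8 CPM at high adhesion. The groups did not overlap, which held for 7 of the 50 tested members and 15.4% of all tested genes, and litter 2 at high adhesion was the highest library. The fold was 1.19 (log2 fold change 0.25 ± 0.08, standard error, n = 3 each, edgeR adjusted p = 0.0317). This call was narrow: it was lost without the replicate block (adjusted p = 0.397), in DESeq2 (adjusted p = 0.507) and without litter 1, 2 or 3 (adjusted p = 0.0516, 0.258 and 0.0545). Its paralogue Daam2 was above its partner in 3 of 3 litters with a fold of 1.09 and did not pass (edgeR adjusted p = 0.456).

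The diaphanous formins had estimates of unequal sign. Diaph1, which encodes the formin mDia1, was 44.3, 40.7 and 42.4 CPM at low against 40.3, 39.3 and 41.2 CPM at high adhesion, below its partner in 3 of 3 litters but with overlapping groups and a fold of 0.945 (edgeR adjusted p = 0.505). Diaph2 had a log2 difference of -0.21 (adjusted p = 0.136), which passed without litter 2 at -0.33 (adjusted p = 0.023). Diaph3, the formin of highest CPM, had 53.2, 71.4 and 57.7 CPM at low against 59.4, 78.2 and 64.4 CPM at high adhesion. It was above its partner in 3 of 3 litters (log2 fold change 0.15 ± 0.05, standard error, n = 3 each, edgeR adjusted p = 0.0948), with overlapping groups and litter 2 high on both substrates. Diaph3 and Iqgap3 are known to be expressed mainly in dividing cells. The 12 markers of cycling cells summed to 744 to 966 CPM at low against 740 to 988 CPM at high adhesion. Of these, 2 were higher (Anln, Plk1), against 4.71% of all tested genes, and 2 lower (Mki67, Cenpf), against 4.83%. The part of these markers in the Diaph3 and Iqgap3 values was not tested. Inf2, which also severs filaments, was below its partner in 3 of 3 litters with a fold of 0.896 (edgeR adjusted p = 0.271). The other formins had log2 fold changes from -0.08 for Fmn1 to 0.12 for Fhod1, and Fmnl1, with 6 to 17 counts per library, had a fold interval from 0.627 to 1.62.

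Cobl (ENSMUSG00000020173), which nucleates unbranched filaments through actin-binding WH2 domains and is known from neurons and polarized epithelia, had the largest fold of the tested members. It was scarce, with 15 to 66 counts per library. Its level was 1.67, 1.90 and 1.13 CPM at low against 2.43, 5.24 and 3.11 CPM at high adhesion. The groups did not overlap, and the high adhesion library of litter 2 stood well above the others. The fold was 2.29 (95% interval 1.69 to 3.09). The log2 difference was 1.19 ± 0.21 (model SE, 3 litter pairs, edgeR adjusted p = 0.00034). Within litters the log2 ratio ran from 0.54 in litter 1 to 1.46 in litter 3 and 1.47 in litter 2. Leaving out litter 1, 2 or 3 kept the call, with log2 fold changes of 1.47, 0.97 and 1.10. Without the replicate block it was lost (adjusted p = 0.293), and DESeq2 gave no adjusted p at this level. Spire1, a nucleator that works with formins, was 51.9, 58.7 and 55.4 CPM at low against 65.4, 61.4 and 58.7 CPM at high adhesion, above its partner in 3 of 3 litters with groups that just overlapped. The fold was 1.11 and did not pass (edgeR adjusted p = 0.112).

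Because Cobl is also an epithelial gene, the epithelial markers of the same libraries are given here. Of 12 listed, 10 were tested. Of these, 5 were higher (Krt8, Krt18, Krt19, Cldn6 and Spint2), where 4.71% of all tested genes were, and none was lower. Of the 10 estimates 9 were positive, and that of Pax2 was -0.11 on the log2 scale. The 12 summed to 300.2 to 597 CPM at low against 480 to 904 CPM at high adhesion. Most of this sum was Krt18, at 200 to 491 CPM at low against 328 to 735 CPM at high adhesion. Epcam had 5.58 to 6.38 CPM at low against 6.75 to 8.06 CPM at high adhesion (edgeR adjusted p = 0.1), Cdh1 0.905 to 1.14 and 0.962 to 1.49 CPM, and Esrp1 was at 0 in 4 of 6 libraries. Without the replicate block Krt19 and Cldn6 passed (adjusted p = 0.0181 and 0.0481). The part of these markers in the Cobl value was not tested. In bulk RNA, fewer cells of a type and less RNA per cell cannot be told apart.

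None of the 4 monomer binding genes passed in the reported edgeR fit or in DESeq2. Of the 4, 2 had an unadjusted edgeR p under 0.05 and 2 passed with limma-voom. All 4 estimates were above 1, although that of Pfn2 turned below 1 in 2 alternatives. Tmsb4x had 16362, 18421 and 16654 CPM at low against 16890, 19402 and 18541 CPM at high adhesion. Each litter was higher at high adhesion, but the low library of litter 2 exceeded the high library of litter 1, so that the groups overlapped. The fold was 1.06 (95% interval 1.02 to 1.11, edgeR adjusted p = 0.0761). Tmsb10, a close relative of thymosin beta 4, had 1486, 1505 and 1563 CPM at low against 1604, 1616 and 1674 CPM at high adhesion without overlap, a fold of 1.07 (adjusted p = 0.0715). Both thymosins lay near the threshold and were the pair that passed with limma-voom (adjusted p = 0.00644 for Tmsb4x and 0.0282 for Tmsb10). In edgeR both also passed with total-count scaling and when only genes of at least 5 CPM were tested. Tmsb4x passed without litter 1 too. Pfn1 had 3907, 4107 and 3961 CPM at low against 4173, 4170 and 4131 CPM at high adhesion, also without overlap, with a fold of 1.04 (95% interval 0.992 to 1.09, adjusted p = 0.346). Pfn2, the neuronal-type profilin, stayed between 30.9 and 35.3 CPM. Tmsb4x held 91.3% ± 0.567 of the thymosin pair per kb at low and 91.2% ± 0.527 at high adhesion, and Pfn1 99.4% ± 0.0395 and 99.5% ± 0.0298 of the profilin pair (SD, n = 3 each).

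Among the cofilins, Cfl2 was higher. Cfl2 (ENSMUSG00000062929), known as the muscle cofilin, had 294, 302 and 304 CPM at low against 342, 361 and 334 CPM at high adhesion. All 3 high adhesion libraries lay above all 3 low ones. The fold was 1.15. The log2 difference was 0.20 ± 0.04 with a 95% interval of 0.11 to 0.28 (model SE, 3 litter pairs, edgeR adjusted p = 0.00167). It passed without litter 1, 2 or 3 and in DESeq2 (adjusted p = 0.015), but not without the replicate block (adjusted p = 0.255). Markers of pericytes and smooth muscle, which include contractile genes, moved in the same libraries. Of 8 tested, 5 were higher (Acta2, Myh11, Cnn1, Tagln and Des), against 4.71% of all tested genes. Another 2 were lower (Rgs5 and Cspg4), against 4.83%. These calls are given for the fit with the replicate block only. The 8 summed to 4840 to 8061 CPM at low against 6875 to 10590 CPM at high adhesion. Most of this sum was Acta2, at 2963 to 5382 and 4599 to 7339 CPM, and Tagln, at 1761 to 2560 and 2141 to 3093 CPM. The sum therefore hides the lower Rgs5 and Cspg4. The part of these markers in the Cfl2 value was not tested.

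Cfl1, the non-muscle cofilin, had 1949, 2256 and 2036 CPM at low against 2146, 2173 and 2142 CPM at high adhesion. The groups overlapped through litter 2, where it was lower at high adhesion, and the fold was 1.04 (95% interval 0.982 to 1.09, edgeR adjusted p = 0.484). Dstn, which encodes destrin, a relative of cofilin that favours disassembly, had 260, 285 and 269 CPM at low against 276, 324 and 290 CPM at high adhesion. It was above its partner in 3 of 3 litters and just missed the threshold (fold 1.09, edgeR adjusted p = 0.0582). It passed with total-count scaling, and when only genes of at least 5 CPM were tested (adjusted p = 0.0375). With the filter of 5 CPM, 5 members were higher, against 7.03% of all genes, and 1 was lower, against 6.95%. In either direction 14% of all genes were called with that filter. Per kb, Cfl2 made up 9.89%, 8.93% and 9.80% of the family at low and 10.4%, 10.6% and 10.1% at high adhesion, without overlap. Cfl1 made up 75.2%, 76.7% and 75.4% at low and 75.2%, 73.2% and 74.8% at high adhesion, nearly the same in litter 1 and smaller in litters 2 and 3.

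Of the enzymes that switch cofilin off and on, none passed in edgeR, DESeq2 or limma-voom, and none had an unadjusted edgeR p under 0.05. The LIM kinases phosphorylate and inactivate cofilin, and Limk1 had 4.64 to 8.37 CPM at low against 6.50 to 7.07 CPM at high adhesion, Limk2 28.3 to 30.9 and 29.1 to 32.3 CPM. Both gave a fold of 1.05 (edgeR adjusted p = 0.827 and 0.593). The slingshot phosphatases, which reverse that step, had folds of 0.96 for Ssh1 and 1.06 for Ssh2 (edgeR adjusted p = 0.666 and 0.539), with groups that overlapped. The activity of these proteins is set by phosphorylation, which messenger RNA does not measure.

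**Figure D3:**
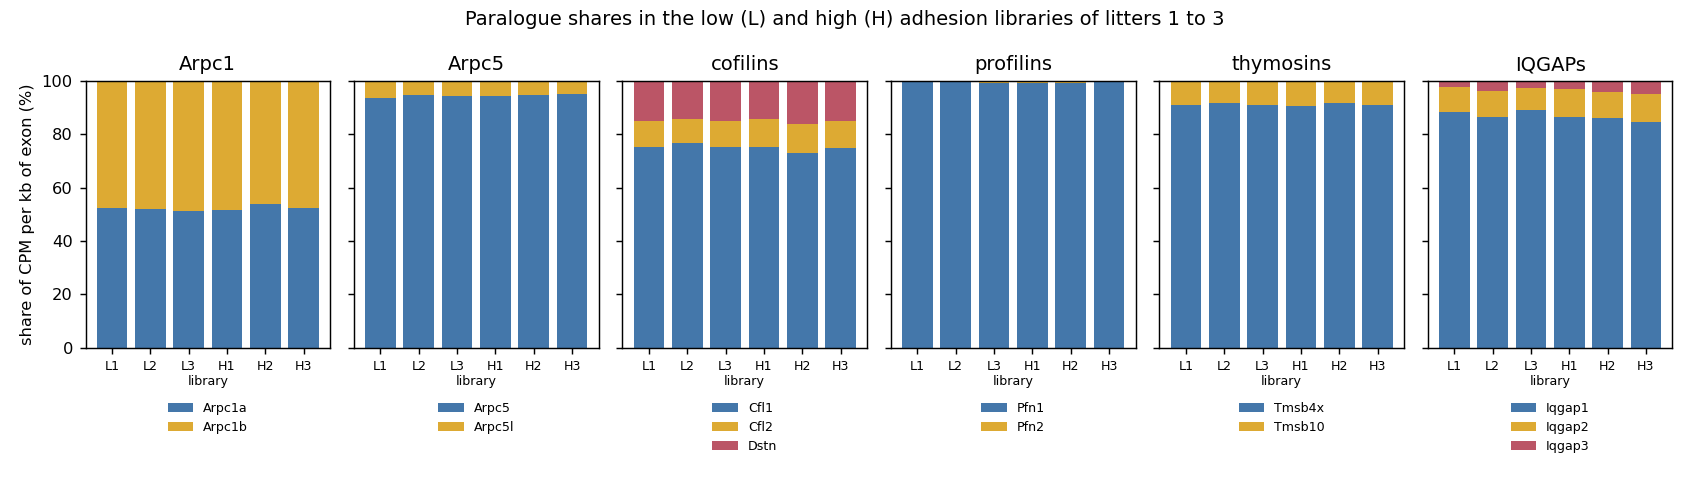
Share of each paralogue in the summed CPM per kb of exon of its group, in percent, for the low (L) and high (H) adhesion libraries of litters 1 to 3. The shares of the profilin and thymosin pairs are nearly alike across the 6 libraries, and Iqgap1 goes from a mean of 87.9% to 85.7% of the IQGAP group.

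Iqgap1 (ENSMUSG00000030536), which encodes a large scaffold that binds filaments, Cdc42 and Rac and links them to N-WASP and the formin mDia1, was the 1 member that fell, and it had the lowest adjusted p of all 50. It had 325, 336 and 346 CPM in the low adhesion libraries of litters 1, 2 and 3 and 251, 249 and 221 CPM in the high adhesion libraries. The groups were far apart, and within litters the log2 ratio was -0.37, -0.43 and -0.65. The level at high adhesion was 0.714 of that at low (95% interval 0.668 to 0.763). The log2 difference was -0.49 ± 0.05 (model SE, 3 litter pairs, edgeR adjusted p = 1.14e-07). Iqgap1 passed in all 11 alternative settings run, with log2 fold changes from -0.53 to -0.40 and a highest adjusted p of 0.0373, reached without the replicate block. Its counts, 2983 to 4583 per library, were whole numbers in 6 of 6 libraries.

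Iqgap2, better known from liver, was lower too but did not pass, with 11.9, 13.2 and 11.4 CPM at low against 10.4, 9.84 and 9.62 CPM at high adhesion. These groups did not overlap and the fold was 0.817 (95% interval 0.708 to 0.944, edgeR adjusted p = 0.0703). Iqgap3 had 5.77 to 10.4 CPM at low against 6.34 to 8.96 CPM at high adhesion, with a fold of 1.02 (adjusted p = 0.935). Cttn encodes cortactin, which stabilizes Arp2/3 branches. It had 233, 261 and 236 CPM at low against 246, 235 and 227 CPM at high adhesion, a fold of 0.969 (95% interval 0.91 to 1.03, edgeR adjusted p = 0.615).

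**Figure D4:**
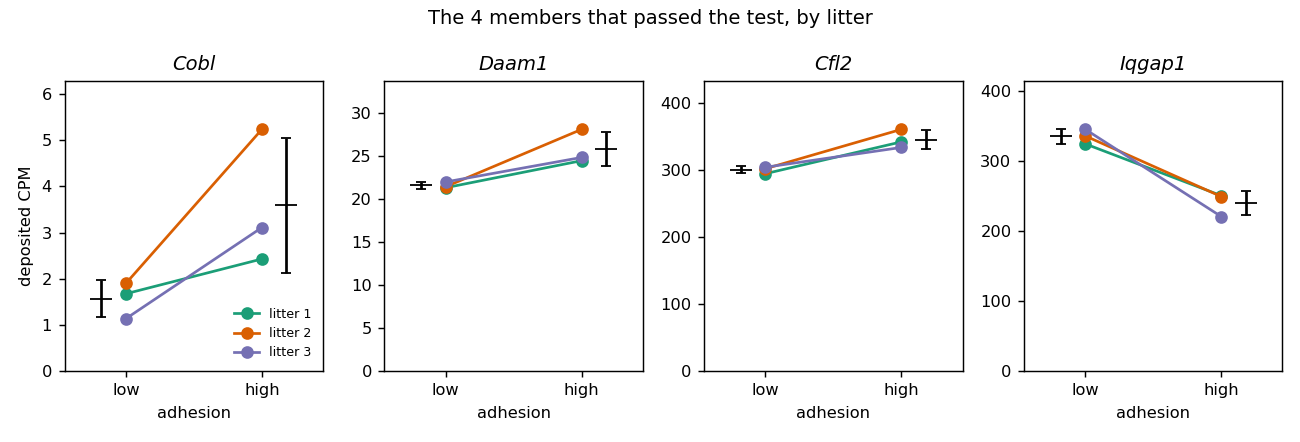
CPM of Cobl, Daam1, Cfl2 and Iqgap1 in each library at low and high adhesion, with lines joining the libraries of a litter and black bars for mean and SD (n = 3 each); each vertical axis starts at 0. All lines rise for Cobl, Daam1 and Cfl2 and all fall for Iqgap1, from 325 to 346 CPM down to 221 to 251 CPM.

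None of the 3 capping and severing genes passed in edgeR, DESeq2 or limma-voom, and 1, Gsn, had an unadjusted edgeR p under 0.05. Capzb, the beta subunit of capping protein, had 615, 693 and 652 CPM at low against 638, 689 and 655 CPM at high adhesion, almost the same in each pair, with a fold of 1.01 (95% interval 0.958 to 1.07, edgeR adjusted p = 0.88). Capza1, an alpha subunit, had a fold of 0.971 (adjusted p = 0.695). Gsn encodes gelsolin, which cuts and caps filaments when calcium rises. It had 140, 130 and 135 CPM at low against 158, 132 and 144 CPM at high adhesion, above its partner in 3 of 3 litters with a fold of 1.07 (adjusted p = 0.217).

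The promoters of the 4 genes that passed are shown because the results turn on these genes. Each sequence is the 250 bases before a start site listed by RefSeq on mouse build GRCm38.p6, an older build than that of the counts, written 5′ to 3′ on the gene's own strand. For Daam1 and Cobl, which have more than 1 listed start, the start farthest upstream is shown. Which start these cells use was not measured. Capitals mark GC boxes (GGGCGG, read as CCGCCC on the other strand), the sequence bound by Sp1-type factors.
Iqgap1, chr7:80803332-80803581, minus strand: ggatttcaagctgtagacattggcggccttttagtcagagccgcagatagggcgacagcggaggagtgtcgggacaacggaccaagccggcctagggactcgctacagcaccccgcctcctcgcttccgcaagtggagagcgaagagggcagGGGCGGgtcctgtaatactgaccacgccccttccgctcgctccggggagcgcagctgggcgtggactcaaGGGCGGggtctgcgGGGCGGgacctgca
Cfl2, chr12:54862878-54863127, minus strand: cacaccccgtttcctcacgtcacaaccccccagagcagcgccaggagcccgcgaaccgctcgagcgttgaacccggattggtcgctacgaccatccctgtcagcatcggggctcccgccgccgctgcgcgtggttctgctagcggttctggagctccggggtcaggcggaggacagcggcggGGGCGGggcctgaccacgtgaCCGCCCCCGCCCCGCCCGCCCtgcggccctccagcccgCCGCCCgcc
Cobl, chr11:12464961-12465210, minus strand: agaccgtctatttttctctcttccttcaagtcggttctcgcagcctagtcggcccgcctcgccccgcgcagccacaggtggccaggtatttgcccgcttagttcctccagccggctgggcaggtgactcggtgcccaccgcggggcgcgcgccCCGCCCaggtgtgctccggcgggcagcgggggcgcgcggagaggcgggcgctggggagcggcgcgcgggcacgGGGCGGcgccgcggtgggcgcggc
Daam1, chr12:71830818-71831067, plus strand: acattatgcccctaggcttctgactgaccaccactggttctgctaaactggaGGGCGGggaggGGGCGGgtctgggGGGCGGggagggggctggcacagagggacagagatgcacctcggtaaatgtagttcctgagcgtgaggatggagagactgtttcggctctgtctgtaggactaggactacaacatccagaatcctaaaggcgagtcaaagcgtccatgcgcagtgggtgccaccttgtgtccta

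The windows before all listed starts of the 44 members present in the RefSeq table were searched on both strands for 4 motifs. A gene was counted once if any of its windows held the motif. GC boxes were found in 32 of the 44 members (72.7%) and in 35.4% of all 27025 genes of the table. Those 27025 genes were not limited to genes tested here, so the shares are not matched for expression. All 4 printed promoters hold GC boxes: 6 matches for Cfl2, counting overlaps, 3 each for Iqgap1 and Daam1 and 2 for Cobl. The windows before the other listed starts of Daam1 and Cobl, not printed, held 0. The CArG box, bound by the serum response factor SRF, whose coactivator MRTF is held by actin monomers, was found in 1 of 44 members, Arpc4, and in 1.62% of all genes. The AP-1 site TGANTCA was found in 3 of 44 (Diaph2, Fmnl3 and Limk2) and in 7.82% of all genes. The TEAD site GGAATG was found in 6 of 44 and in 14.4% of all genes. No window of Iqgap1, Cfl2, Cobl or Daam1 held a CArG box, an AP-1 site or a TEAD site, which says only that these letters are not in these 250 bases. Abi2, Arpc5l, Cttn, Cyfip1, Diaph1, Fhod3, Nckap1 and Spire1 had no entry and were not searched.

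Some members also differed between litters. In the same edgeR model, with a joint test of the litter terms, 14 of the 50 tested members (28%) differed between litters, against 17.9% of all tested genes. Inf2 showed the lowest adjusted p (8.92e-06): litter 1 stood at 24.6 CPM at low against 21.8 CPM at high adhesion, and the other libraries between 13.1 and 15.9 CPM. Diaph3 was highest in litter 2 on both substrates (edgeR adjusted p = 6.95e-05). Abi1, a subunit of the WAVE complex, was lowest in litter 2, with 77.0 and 77.6 CPM against 90.9 to 97.4 CPM in the other 4 libraries (adjusted p = 0.00115). Tmsb4x, Arpc5, Arpc4, Actr3, Capzb and Capza1 were also among the 14, and of the 4 genes called for adhesion only Cobl was (adjusted p = 0.0244). Among genes of at least 5 CPM the shares were closer, with 12 of 46 members (26.1%) against 22.5% of genes. DESeq2's likelihood ratio test called 5 members for litter in place of 14 (10% of members against 5.84% of all genes).

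**Figure D5:**
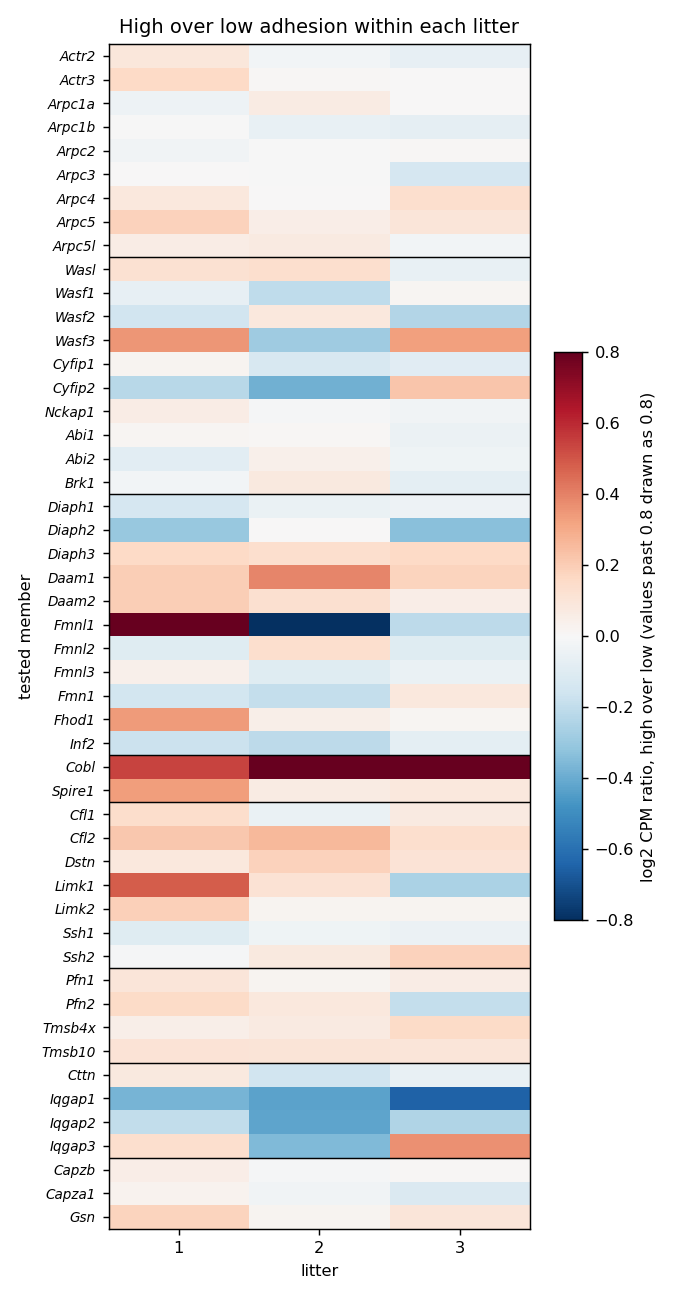
Log2 ratio of CPM at high over low adhesion within each of the 3 litters for the 50 tested members, red where high adhesion is above and blue where it is below; black lines part the roles and values past 0.8 are drawn as 0.8. The Cobl row is red and the Iqgap1 row blue in all 3 litters, 16 members are above and 6 below in 3 of 3 litters, and most cells are pale. The share of all tested genes with 3 of 3 litters on the same side was not computed.

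Other genes of the machinery were taken from a list of 97 regulators outside the set, of which 85 were tested. Of these, 12 rose and 4 fell, or 18.8% called against 9.55% of all tested genes, with a median log2 fold change of 0.06. Without the replicate block 1 rose and none fell, where 8 and 4 had an unadjusted p under 0.05, and leaving out litter 1 or litter 3 left 7 that rose. Among regulators of Arp2/3 and its activators 4 rose and 1 fell of 30. Coro1c, a coronin that acts at the rear of branched networks, went from 86.3, 107 and 96.8 CPM to 112, 123 and 108 CPM (log2 fold change 0.24 ± 0.05, standard error, n = 3 each, edgeR adjusted p = 0.00164, 0.0552 without litter 1). Mtss1, a membrane-bending actin regulator, rose 1.37-fold (adjusted p = 0.0129, and 0.0699 and 0.0588 without litters 2 and 3).

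Of the 3 Ena/VASP genes, whose proteins speed up filament growth, Enah rose 1.16-fold and Vasp 1.10-fold (edgeR adjusted p = 0.00291 and 0.0349, for Vasp 0.41 without litter 1 and 0.0723 without litter 3). Their groups overlapped, with litter 2 high on both substrates. Among other formins and nucleators 1 of 4 rose. This was Lmod1, the smooth muscle leiomodin, at 6.76, 22.7 and 9.88 CPM at low against 12.1, 40.8 and 21.3 CPM at high adhesion (fold 1.90, adjusted p = 3.34e-08). Of 18 genes for capping, severing and pointed ends, 1 rose: Eps8l2 by 1.78-fold (adjusted p = 0.000491). None of 9 genes for turnover and monomer recycling passed in edgeR, DESeq2 or limma-voom (4 had an unadjusted edgeR p under 0.05), and the one of highest CPM, Wdr1, which helps cofilin take filaments apart, had a fold of 1.07 (adjusted p = 0.179). None of Coro1c, Mtss1, Enah, Vasp, Lmod1 and Eps8l2 passed without the replicate block (edgeR adjusted p between 0.242 and 0.759), and Coro1c and Lmod1 passed in DESeq2.

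The sorted cells were compared with their marker genes. Pdgfra, whose product was used for the sort, was at 26.6 to 33.6 CPM at low against 16.9 to 26.5 CPM at high adhesion, and Foxd1, a stromal progenitor gene, at 182 to 216 and 157 to 176 CPM. Of 10 stromal markers 7 were lower at high adhesion, where 4.83% of all tested genes were. Only Vim was higher, where 4.71% of all tested genes were, and 9 of the 10 estimates were negative. None of the 8 called markers passed without the replicate block. The 10 summed to 5956 to 6882 CPM at low against 5910 to 6763 CPM at high adhesion. Vim was the largest part of this sum, at 3053 to 3600 CPM at low against 3301 to 4052 CPM at high adhesion. The sum therefore hides the lower estimates of the others. Leukocytes express Was and Fmnl1, and their markers summed to 57.9 to 105 CPM at low against 44.2 to 107 CPM at high adhesion, with 1 higher and 1 lower of 12, and Ptprc, their defining gene, had 0.531 to 1.37 and 0.814 to 1.49 CPM. Endothelial markers summed to 71.7 to 91.9 and 77.5 to 103 CPM, with Pecam1 at 0.981 to 2.04 CPM over the 6 libraries. Of 7 tested, 1 was higher (Flt1), against 4.71% of all tested genes, and 1 lower (Emcn), against 4.83%. Markers of nephron progenitors summed to 66.1 to 84.1 and 71.9 to 91.8 CPM, with Six2 at 12.8 to 21.8 CPM over the 6 libraries. Of 7 tested, 1 was higher (Cited1) and none was lower. The calls of these lists are given for the fit with the replicate block only. Erythroid markers summed to 200 to 317 CPM at low against 166 to 331 CPM at high adhesion, and none of 4 tested passed in edgeR, at an adjusted p or at an unadjusted p under 0.05. Their part in the members' values was not tested.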

How the data were processed

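The authors deposited 1 table with estimated counts per gene, not scaled, and CPM computed from them, for 6 libraries of polyadenylated RNA. Per the submitters' processing notes the tools were STAR 2.7.11 and featureCounts (Subread 2.1.1), with fastp 0.24.0, FastQC 0.12.1, SAMtools 1.22.1 and MultiQC 1.32, on build GRCm39. The sources used here do not give the annotation, the strand setting or how multiply matching reads were shared, so overlapping and antisense genes may share reads. Between 57.3% and 59.8% of a library's counts sat in genes with fractional values. Cfl1, Limk2, Tmsb10 and Cttn had such values in 6 of 6 libraries and are uncertain. Pfn1, Actr3, Arpc5, Dstn and Capza1 had them in 5 of 6, and Tmsb4x in 4 of 6. Of the 52 members, 19 had whole counts in 6 of 6 libraries, and the others carry this uncertainty in some libraries.

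Counts were rounded, filtered with filterByExpr (14834 genes), scaled by TMM (factors 0.988 to 1.01) and fitted with edgeR 4.0.16 in R 4.3.3 by robust quasi-likelihood with litter as a block, since the design text calls the samples litter-matched. Two-sided p-values received a Benjamini-Hochberg adjustment across the 14834 genes, with a threshold of 0.05. Standard errors are the log2 fold change over the root of F, and 95% intervals use the test's degrees of freedom. All standard errors given here rest on a variance that edgeR moderates across genes. They are not the spread of the 3 litter ratios. Printed CPM are the deposited values. A direction held in 3 of 3 litters describes these values only, as its share over all tested genes was not computed. Libraries of 1 litter deviated together (correlations over genes of 0.575, 0.576 and 0.361 for litters 1, 2 and 3). Replicates are litters of pooled kidneys. Exon lengths (52 of 52 members) came from GENCODE M21 on GRCm38, promoters from RefSeq on GRCm38.p6.

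The members and lists were chosen with earlier results of these data known. Values are given for each member that passed and the member of highest CPM in each role, and for other genes of the machinery for up to 2 called genes of lowest p per list, or the one of highest CPM where none was called. Further members are named where a sentence needed them. The genes of 1 of the lists of other regulators are not reported here singly. Alternatives were no block, RLE or total-count scaling, DESeq2 1.42.0, limma-voom (limma 3.58.1), other filters, rounding down, leaving out each litter and another exon length. Only the edgeR fit with the block was run on simulated data, drawn from its own model, and the other methods were not.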

Additional observations from a re-analysis of the deposited data

How the results depend on the processing

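Iqgap1 was called in all 11 alternatives, Cfl2 in 10 of 11, Cobl in 8 of the 9 that gave it an adjusted p, and Daam1 in 6 of 11. A further 6 members (Arpc5, Wasf2, Diaph2, Dstn, Tmsb4x and Tmsb10) passed in at least 1 alternative, and 40 passed in no setting run. In place of 3 members higher, 0 were called without the replicate block (4 at an unadjusted p under 0.05, edgeR), 6 with total counts only, 1 with DESeq2, 5 with limma-voom and 5 when genes of at least 5 CPM were tested. The share of all genes higher was 4.71% in the reported fit, 0.135% without the replicate block, 4.74% with total counts only, 1.39% with DESeq2, 4.74% with limma-voom and 7.03% at 5 CPM. Leaving out 1 litter gave 2 to 3 members higher and 1 to 3 lower, the latter 3 without litter 2, with 2.84% to 4.87% of all genes higher and 3.21% to 5.43% lower. For the 97 other regulators, 12 higher and 4 lower became 1 and 0 without the replicate block (8 and 4 at an unadjusted p), 4 and 0 with DESeq2 (12 and 3 at an unadjusted p), and 7 to 12 and 2 to 3 when 1 litter was left out (7 without litter 1 or 3, and 2 without litter 3). DESeq2 called 5 members for litter in place of 14, and 5.84% of all genes in place of 17.9%. With genes of at least 5 CPM, 12 of 46 members and 22.5% of genes were called for litter. The cause of these shifts was not tested. With the length of the longest transcript in place of all exons, shares at high adhesion were 50.7% for Arpc1a, 95.1% for Arpc5, 77.0% for Cfl1, 9.89% for Cfl2, 99.3% for Pfn1, 89.9% for Tmsb4x and 91.2% for Iqgap1. At low counts the test resolves little, as the Fmnl1 fold interval of 0.627 to 1.62 shows.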
